A study of Homo sapiens with 6 samples.

Results

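The exocyst is a complex that holds secretory vesicles at the plasma membrane before they fuse with it. Vertebrate cells build it from 8 kinds of subunit, encoded by *EXOC1* to *EXOC8*, and *EXOC6B* is a paralog of *EXOC6*. In these data 9 genes, those named *EXOC1*, *EXOC2*, *EXOC3*, *EXOC4*, *EXOC5*, *EXOC6*, *EXOC6B*, *EXOC7* and *EXOC8*, were taken by gene name from the 63241 genes listed, and all 9 were expressed highly enough to be tested. The group was drawn up around *EXOC6*, which was selected on its TPM in the same Control and A904 libraries. Its difference is therefore given below as a description without a test, while the other 8 genes belong by their place in the complex.

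RNA-seq was performed on HT-29 cells, a human colorectal adenocarcinoma line that the labels call a wild type colon enterocyte. The Control group (3 libraries) received buffer and the A904 group (3 libraries) received 0.5 μM Amuc_0904, an outer membrane protein of *Akkermansia muciniphila*, for 72 h. Both groups are one cell line in culture, and neither the labels nor the methods say whether the replicates were separate cultures, so that p values measure only the spread between these libraries. Levels are TPM, a share of all transcripts in a library, which are scaled for gene length and can be compared between genes. Reads per library are not known, so counting error could not be given. Of 11 markers of a colon epithelial line, 9 were at or above 1 TPM in all 6 libraries. The others were the intestinal transcription factor genes *CDX1* and *CDX2*, the latter at 0.46 to 1.71 TPM. Of 12 markers of other cell types, 3 were at or above 1 TPM in all 6 libraries, namely *LYZ*, which encodes lysozyme (2473.95 to 2698.32 TPM), the macrophage marker *CD68* (8.13 to 13.79 TPM) and the smooth muscle actin gene *ACTA2* (1.05 to 1.55 TPM). The summed level of the 12, nearly all from *LYZ*, ranged over 2590.58 to 2634.84 TPM among Control libraries and over 2490.56 to 2710.57 TPM among A904 libraries. *CD3E* and *COL1A2* were listed at 0 in all libraries, and the leukocyte gene *PTPRC* did not exceed 0.02 TPM.

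One library stood apart. On the first principal component, which held 35.5% of the variance, A904 replicate 1 lay at −4.79, the Control libraries at −13.0 to −12.4 and A904 replicates 2 and 3 at 20.4 and 22.8. The share of TPM from genes of mitochondrial DNA was 12.8% to 13.5% in Control, 13.0% in A904 replicate 1 and 10.6% and 11.1% in A904 replicates 2 and 3. Results are therefore also given without A904 replicate 1. That library was singled out on these same values, so a pass without it is a description and no separate support. At an adjusted p under 0.05 (limma, Benjamini-Hochberg), 34 genes passed with all libraries and 2640 without A904 replicate 1.

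The complex has a known order of work. One subcomplex holds EXOC1 to EXOC4 and the other EXOC5 to EXOC8. EXOC1 and EXOC7 bind phosphoinositides of the plasma membrane, and EXOC6 and EXOC6B, the homologs of yeast Sec15, bind the GTPase RAB11 on the incoming vesicle. In epithelial cells the exocyst serves delivery to the basolateral and apical surfaces, recycling of receptors and growth of primary cilia.

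*EXOC6* lies on the plus strand of chromosome 10 from 92834713 to 93059493 (GRCh38, GENCODE), over 224.8 kb with 7 annotated transcripts that start at 7 positions. RefSeq gives the gene 3 start windows, and a TPM per gene cannot tell which of them was used. The 250 bases before each RefSeq start (GRCh38.p14, plus strand, 5′ to 3′) are shown as the sequence ahead of each possible start. Capitals mark the GC box GGGCGG on either strand. Windows 1 and 2 end before the GENCODE start of the gene, so that RefSeq and GENCODE differ in where *EXOC6* begins.
*EXOC6* window 1, chr10:92826581-92826830: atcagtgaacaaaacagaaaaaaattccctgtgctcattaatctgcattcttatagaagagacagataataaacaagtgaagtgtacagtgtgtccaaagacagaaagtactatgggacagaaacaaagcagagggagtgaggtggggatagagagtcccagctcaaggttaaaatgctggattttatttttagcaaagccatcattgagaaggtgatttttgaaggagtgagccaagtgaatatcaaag
*EXOC6* window 2, chr10:92830858-92831107: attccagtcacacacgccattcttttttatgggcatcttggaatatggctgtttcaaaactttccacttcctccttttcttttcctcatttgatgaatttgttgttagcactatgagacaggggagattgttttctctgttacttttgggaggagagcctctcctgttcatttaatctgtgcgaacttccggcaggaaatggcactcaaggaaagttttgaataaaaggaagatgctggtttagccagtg
*EXOC6* window 3, chr10:92848270-92848519: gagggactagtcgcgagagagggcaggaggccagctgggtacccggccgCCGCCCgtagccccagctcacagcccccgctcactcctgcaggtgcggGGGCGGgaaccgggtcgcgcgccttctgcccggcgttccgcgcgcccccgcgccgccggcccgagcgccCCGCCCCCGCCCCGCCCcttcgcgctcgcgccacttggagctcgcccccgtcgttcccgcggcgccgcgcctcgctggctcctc
The windows differ in composition. G and C made up 38.4%, 41.2% and 80.0% of the bases of windows 1, 2 and 3, against a median of 58.0% over 35116 RefSeq windows of the same length. Window 3 held 5 GC boxes, 2 of which overlap by a base, and windows 1 and 2 held 0, while 42.6% of all windows held at least 1. The ETS core CCGGAAG, searched on both strands, was found once in window 2 and in 8.5% of all windows. Of the 11 windows of exocyst subunit genes 4 held it, namely window 2 and those of *EXOC1*, *EXOC3* and *EXOC5*. RefSeq windows were matched for 8 of the 9 genes, and 5 of the 8 windows of the other subunits held a GC box.

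*EXOC6* was at 18.53, 18.17 and 18.63 TPM in Control replicates 1, 2 and 3, and at 33.89, 32.29 and 32.61 TPM in A904 replicates 1, 2 and 3. The lowest A904 library lay 13.7 TPM above the highest Control library, while the libraries of a group spanned 0.46 TPM in Control and 1.6 TPM in A904. The mean went from 18.4 ± 0.242 to 32.9 ± 0.847 TPM (SD, n = 3), 1.79-fold higher with Amuc_0904 and a log2 difference of 0.80 for TPM + 1. A904 replicate 1, which lay nearest the Control group over all genes, held the highest *EXOC6* level, and without it the log2 difference was 0.78. Among the 14333 genes tested 46 had a larger positive log2 difference. At an adjusted p under 0.05 (limma, Benjamini-Hochberg), 0.237% of the tested genes were called, 0.0698% higher and 0.167% lower, and since *EXOC6* was chosen on this contrast nothing is read from its place among them.

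**Figure D1:**
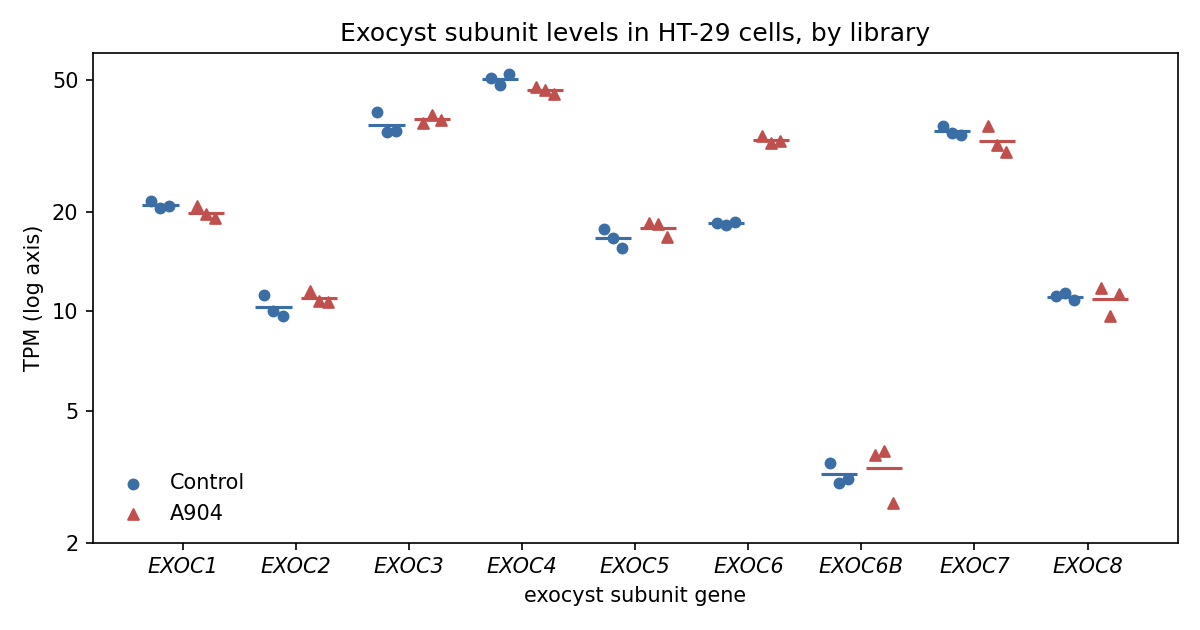
TPM (log axis) of the 9 exocyst subunit genes, with circles for Control libraries, triangles for A904 libraries and a line at each group's mean (n = 3). The A904 libraries of *EXOC6* sit at 32.29 to 33.89 TPM against 18.17 to 18.63 TPM in Control, and the groups of every other subunit except *EXOC4* overlap.

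No difference passed the test among the partner subunits. By limma on log2(TPM + 1) over all tested genes, 0 of the other 8 passed the adjusted p, where 0.237% of all tested genes did. With so few genes passing, that count says little of the partners. An unadjusted p under 0.05 was reached by 0 of the 8, where 15.8% of all tested genes did (9.95% higher and 5.87% lower). Their log2 differences lay between −0.11 and 0.10, 4 above and 4 below 0, with a median of 0.0081 against 0.0015 over all tested genes. The highest upper bound of their 95% intervals was 0.36, that of *EXOC6B*. Adjusted p values lay between 0.356 and 0.917, and without A904 replicate 1, where 18.8% of the genes tested passed (9.51% higher and 9.24% lower), 0 of the 8 passed and the lowest was 0.0673.

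*EXOC1* and *EXOC2* belong to the first subcomplex. *EXOC1*, the Sec3 homolog that helps to place the complex on the membrane (chromosome 4, 55853616 to 55905034), had 21.52, 20.51 and 20.86 TPM in Control and 20.74, 19.62 and 19.19 TPM in A904. Its groups overlapped through A904 replicate 1 alone, and the log2 difference was −0.075 (95% interval −0.21 to 0.064). *EXOC2*, the Sec5 homolog and a target of the Ral GTPases (chromosome 6, 485133 to 693111), had 11.17, 10.02 and 9.65 TPM and 11.52, 10.73 and 10.70 TPM. Control replicate 1 lay within the A904 range, and the log2 difference was 0.089 (−0.099 to 0.28).

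*EXOC3* and *EXOC4* complete this subcomplex and had the highest levels of the partners in Control. *EXOC3*, the Sec6 homolog (chromosome 5, 443158 to 471937), had 39.92, 34.89 and 34.95 TPM in Control and 37.05, 39.29 and 37.78 TPM in A904. The 3 A904 libraries lay within the Control range (log2 difference 0.057, 95% interval −0.10 to 0.22). The annotation places other genes on the opposite strand of *EXOC3* (*PP7080*, 15.74 to 20.12 TPM), *EXOC5* (*AP5M1*), *EXOC7* (*ZACN*) and *EXOC8* (*SPRTN*), and whether strand was used in quantification is not stated. *EXOC4*, the Sec8 homolog (chromosome 7, 133253073 to 134066589), had 50.55, 48.41 and 51.96 TPM in Control and 47.72, 46.56 and 45.27 TPM in A904. It was the 1 partner of 8, or 12.5%, whose groups did not overlap, and 21.0% of all tested genes had groups that did not overlap, 13.4% with A904 above and 7.59% with A904 below. Its log2 difference was −0.11 (−0.23 to 0.012, adjusted p = 0.356 by limma).

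In the second subcomplex, *EXOC5*, the Sec10 homolog that binds EXOC6 (chromosome 14, 57200507 to 57269008), had 17.69, 16.62 and 15.52 TPM in Control and 18.47, 18.31 and 16.78 TPM in A904. A904 replicate 3 lay inside the Control range, and the log2 difference was 0.099 (95% interval −0.074 to 0.27). *EXOC7*, the Exo70 homolog (chromosome 17, 76081017 to 76121576), had 36.29, 34.66 and 34.06 TPM in Control and 36.20, 31.73 and 30.30 TPM in A904. Replicate 1 lay with the Control libraries while replicates 2 and 3 lay below them all, and the log2 difference was −0.097 with it and −0.17 without it (adjusted p = 0.561 and 0.0673 by limma). *EXOC8*, the Exo84 homolog and a second target of Ral (chromosome 1, 231332753 to 231337852), had 11.13, 11.33 and 10.78 TPM in Control and 11.79, 9.66 and 11.27 TPM in A904. The A904 libraries lay on both sides of the Control range, and the difference was −0.025 (−0.23 to 0.18), turning to 0.053 without A904 replicate 2.

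The paralog *EXOC6B* (chromosome 2, 72175984 to 72826041) had the lowest level of the 9, with 3.49, 3.03 and 3.12 TPM in Control and 3.68, 3.78 and 2.63 TPM in A904. A904 replicates 1 and 2 lay above and replicate 3 below every Control library, so that no direction could be read (log2 difference 0.041, 95% interval −0.28 to 0.36). The sign turned without A904 replicate 1 or 2 (−0.015 and −0.030). In the GENCODE transcripts, 0 of the 6335 stretches of 75 bases in *EXOC6* occurred in a transcript of another gene, *EXOC6B* included. Of the 12854 such stretches in *EXOC5*, 2.05% were shared with other genes, most often with the pseudogene *EXOC5P1*, which was listed at 0 in all libraries.

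**Figure D2:**
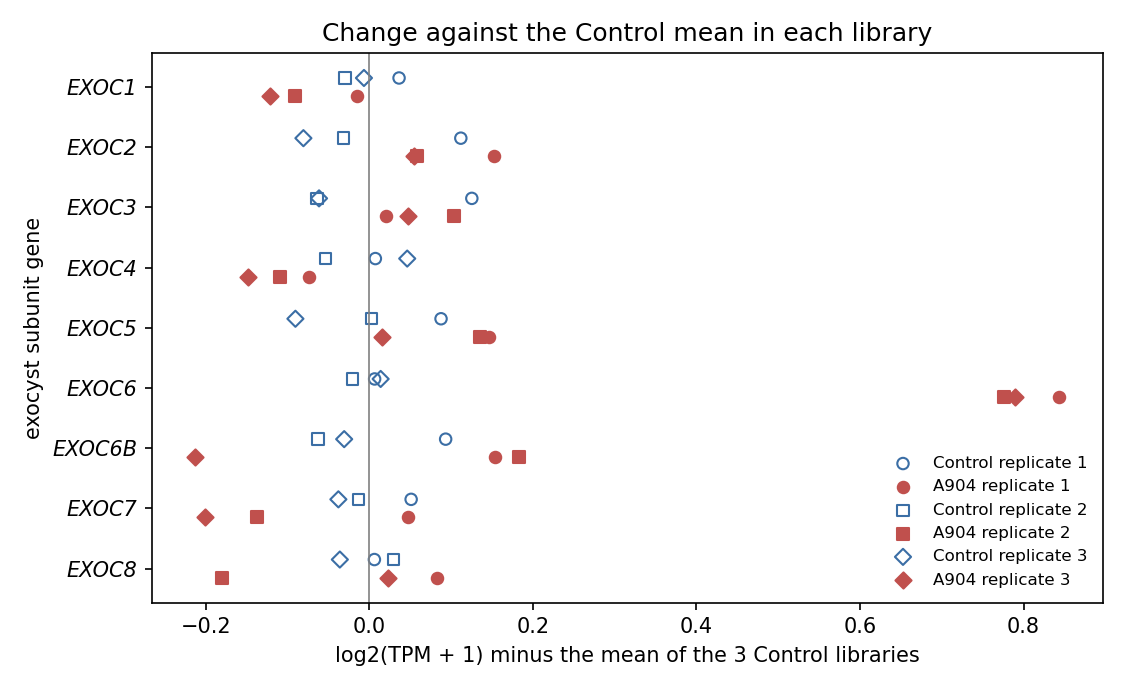
Change of each exocyst subunit in each library, as log2(TPM + 1) minus the mean of the 3 Control libraries (open symbols, Control; filled symbols, A904; the shape gives the replicate). *EXOC6* sits at 0.84, 0.78 and 0.79 in A904 replicates 1, 2 and 3, and the A904 values of the other 8 genes lie between −0.21 and 0.18.

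Seen library by library, the median change of the 8 partners against the Control mean was 0.065, −0.016 and −0.053 in A904 replicates 1, 2 and 3. In Control the order from the highest was *EXOC4*, *EXOC3*, *EXOC7*, *EXOC1*, *EXOC6*, *EXOC5*, *EXOC8*, *EXOC2* and *EXOC6B*, and the neighbours *EXOC3* and *EXOC7*, and *EXOC8* and *EXOC2*, overlapped in their libraries. *EXOC6* thus stood in place 5. In A904 it stood in place 3, with a mean of 32.9 TPM and overlapped *EXOC7*, the next below with 32.7 TPM. *EXOC2* and *EXOC8* overlapped again, and the other neighbours were apart in each of the 3 libraries of both groups.

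The share of each subunit was then taken. *EXOC6* made up 8.81%, 9.19% and 9.34% of the summed TPM of the 9 genes in Control replicates 1, 2 and 3, and 15.3%, 15.2% and 15.8% in A904. The mean share was 9.11 ± 0.272% in Control and 15.5 ± 0.297% in A904 (SD, n = 3), and since *EXOC6* was chosen for its level these shares carry no test. The summed TPM of the other 8 genes was 184.0 ± 6.72 in Control and 180.3 ± 6.64 in A904, a difference smaller than the spread of either group. *EXOC6* and *EXOC6B* together had 21.7 ± 0.418 and 36.3 ± 1.18 TPM.

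*EXOC6* was also set against single partners. The ratio of *EXOC6* to *EXOC6B* was 5.31, 5.997 and 5.97 in Control and 9.21, 8.54 and 12.4 in A904 replicates 1, 2 and 3, the last of these having the lowest *EXOC6B* level. The ratio of *EXOC6* to *EXOC5*, its binding partner, was 1.11 ± 0.0785 in Control and 1.85 ± 0.0906 in A904 (SD, n = 3). Relative to the mean log2 level of the 8 partners, *EXOC6* stood at 0.052 ± 0.0551 in Control and 0.86 ± 0.0449 in A904, a difference of 0.81.

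**Figure D3:**
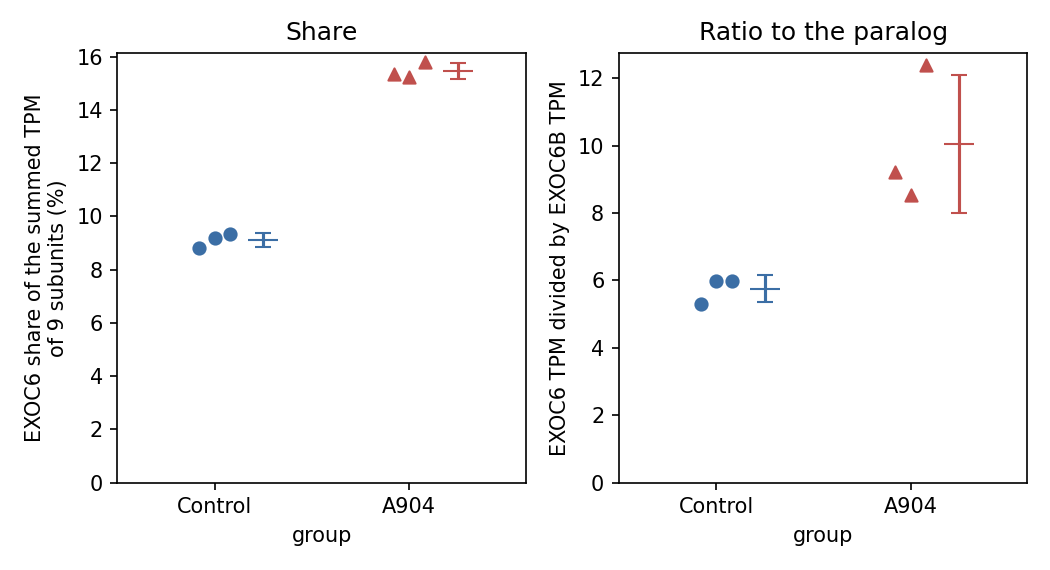
Share of *EXOC6* in the summed TPM of 9 exocyst genes (left, percent) and ratio of *EXOC6* to *EXOC6B* TPM (right), one point per library with mean and SD of 3 libraries beside the points. The share is 8.81% to 9.34% in Control and 15.2% to 15.8% in A904, and the ratio is spread more widely in A904.

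Genes beside *EXOC6* on chromosome 10 that could be tested showed smaller log2 differences than it. The 3 nearest protein-coding genes before it are *IDE*, *KIF11* and *HHEX*, and those after it are *CYP26C1*, *CYP26A1* and *MYOF*. *CYP26C1*, which starts 1.32 kb after the end of *EXOC6*, was listed at 0 in all 6 libraries, and *CYP26A1*, which encodes an enzyme that breaks down retinoic acid, ranged from 0.3 to 0.71 TPM among Control libraries and from 0.09 to 0.34 TPM among A904 libraries, below the 1 TPM needed for a test. *HHEX*, a homeobox factor 139.1 kb before *EXOC6*, had 3.97 TPM in Control and 3.86 TPM in A904 on average (log2 difference −0.043, adjusted p = 0.905 by limma). *MYOF* had 12.7 and 12.5 TPM (−0.012, adjusted p = 0.952). The protease gene *IDE* had 19.1 and 23.2 TPM (0.26, adjusted p = 0.251) and the mitotic kinesin gene *KIF11* 31.4 and 35.1 TPM (0.15, adjusted p = 0.300). In each case all A904 libraries lay above Control, as in 13.4% of all tested genes. Their unadjusted p values by limma were 0.016 and 0.040, where 9.95% of all tested genes were higher at a p under 0.05.

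The genes whose profile over the 6 libraries was most like that of *EXOC6* were found by the root mean square distance of log2(TPM + 1) from the Control mean, and they were picked for the likeness, so that no test is given. They were *RPL28P2*, a ribosomal protein pseudogene, *NDUFAF5*, which serves the assembly of complex I of the respiratory chain, the long non-coding RNA *EMSLR*, the amino acid transporter gene *SLC38A5* and *SPP1*, which encodes osteopontin, at distances of 0.12, 0.13, 0.17, 0.19 and 0.20. *NDUFAF5* had 12.23, 13.71 and 14.92 TPM in Control and 21.13, 25.71 and 24.57 TPM in A904. *SLC38A5* had 8.62, 8.93 and 8.84 TPM in Control and 11.79, 16.02 and 16.20 TPM in A904, with replicate 1 the nearest of the A904 libraries to Control. *RPL28P2*, *EMSLR* and *SPP1* did not exceed 3.66 TPM in any library.

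Proteins related to EXOC3 form a small family outside the complex. *TNFAIP2*, which is induced by tumor necrosis factor and takes part in forming thin membrane tubes between cells, had 117.12, 112.31 and 109.91 TPM in Control and 94.09, 84.28 and 80.42 TPM in A904. Each A904 library lay below each Control library, as in 7.59% of all tested genes. The log2 difference was −0.39 (standard error 0.067, adjusted p = 0.123 by limma). Without A904 replicate 1 *TNFAIP2* passed, with −0.45 and an adjusted p of 0.00220 by limma, where 18.8% of all genes passed (9.24% lower). *EXOC3L4* lay between 0.88 and 1.72 TPM in Control libraries and between 0.67 and 1.8 TPM in A904 libraries (adjusted p = 0.747). *EXOC3L1* stayed at or below 0.62 TPM and *EXOC3L2* at or below 0.02 TPM, and neither was tested.

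The GTPases that call the exocyst to its site, with their regulators and motors, were followed as a list of 29 genes, of which 26 were tested. The adjusted p was passed by 0 of them in limma, where 0.237% of all tested genes did. An unadjusted p under 0.05 was reached by 3 with A904 higher and 0 with A904 lower (9.95% and 5.87% of all tested genes). The median log2 difference was 0.0021, against 0.0015 over all tested genes. *RAB10*, a GTPase of basolateral and GLUT4 vesicles, had 124.03, 117.78 and 124.48 TPM in Control and 138.12, 150.82 and 148.01 TPM in A904 (log2 difference 0.25, adjusted p = 0.191). *ARF6*, which acts in endosomal recycling, and *RAB3IP*, the exchange factor that activates RAB8, had differences of 0.15 and 0.16 (adjusted p = 0.243 and 0.271). These 3 genes had the smallest p of the list, and in each all A904 libraries lay above Control. Over the list the groups did not overlap in 4 genes with A904 above and 1 below, or 19.2%, against 21.0% of all tested genes. Without A904 replicate 1 *RAB10* and *ARF6* passed (0.29 and 0.18, adjusted p = 0.00494 and 0.0229 by limma).

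Binding partners of single subunits were set beside them, chosen after their values were seen. *RAB11A*, the partner of EXOC6, had 547.61, 531.59 and 544.66 TPM in Control and 557.78, 572.35 and 583.31 TPM in A904 (log2 difference 0.077, adjusted p = 0.413 by limma). *RALA* and *RALB*, whose proteins bind EXOC2 and EXOC8, had differences of 0.037 and 0.085 (adjusted p = 0.762 and 0.463). Without A904 replicate 1 *RAB11A* and *RALB* passed (0.094 and 0.13, adjusted p = 0.0488 and 0.0358 by limma). *RHOQ*, whose product TC10 binds EXOC7, had 17.17, 16.40 and 18.66 TPM in Control, 18.16 TPM in A904 replicate 1 and 12.51 and 11.27 TPM in replicates 2 and 3. Replicate 1 lay within the Control range and the others below it (log2 difference −0.32, adjusted p = 0.376, and −0.51 with adjusted p = 0.00936 without replicate 1, by limma). *EXOC7* and *CDH1* had this shape too, and over all genes A904 replicate 1 lay nearest the Control group. Without that library 4 genes of the list passed higher and 2 lower, or 23.1% of those tested, where 18.8% of all genes passed.

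A list of SNAREs, SM proteins and other factors that act on SNAREs covered fusion at the plasma membrane, the step after tethering. Of its 19 genes 18 were tested, as 19 rows, since *VAMP7* has 2 gene identifiers. In limma 0 rows passed the adjusted p, where 0.237% of all tested genes did. An unadjusted p under 0.05 was reached by 1 with A904 higher and 2 with A904 lower, where 15.8% of all tested genes did. The median difference was 0.025. Without A904 replicate 1, 0 rose and 1 fell, or 5.26% of the rows, where 18.8% of all genes passed. The rows of *VAMP7*, a SNARE gene shared by the sex chromosomes, went opposite ways, one with a log2 difference of −0.60 and the other of 2.26 (adjusted p = 0.258 and 0.236). Their sum was 41.88, 38.66 and 41.94 TPM in Control and 41.77, 45.21 and 45.01 TPM in A904, so that the levels of the single rows are uncertain.

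Other tethering complexes gave the background for a complex of this kind. The COG complex of the Golgi, GARP and EARP of the Golgi and endosomes, the Dsl1/NRZ complex of the endoplasmic reticulum, HOPS and CORVET of lysosomes and endosomes, and the TRAPP complexes have 38 listed genes, and all 38 were tested. Again 0 passed the adjusted p in limma, where 0.237% of all tested genes did. An unadjusted p under 0.05 was reached by 1 gene with A904 higher and 1 with A904 lower, where 15.8% of all tested genes did. Their log2 differences lay between −0.24 and 0.20, with a median of 0.045, and that of *EXOC6* was 0.80.

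The 2 genes at the ends of this range were *TRAPPC6A* and *VPS33A*. *TRAPPC6A*, a TRAPP subunit, had 90.15, 87.27 and 82.38 TPM in Control and 74.97, 70.00 and 73.73 TPM in A904, with no overlap (log2 difference −0.24, adjusted p = 0.208 by limma, and −0.27 with 0.0172 without A904 replicate 1). *VPS33A*, the SM protein of HOPS and CORVET, had 12.38, 12.51 and 14.38 TPM in Control and 16.18, 14.40 and 14.92 TPM in A904 (0.20, adjusted p = 0.309). The medians of the 5 groups were 0.0061 for COG (lowest p in *COG3*, *COG5* and *COG4*), 0.033 for GARP and EARP (*VPS51*, *VPS52*, *VPS54*), 0.13 for Dsl1/NRZ (*ZW10*, *RINT1*, *NBAS*), 0.022 for HOPS and CORVET (*VPS33A*, *VPS39*, *VPS16*) and 0.061 for TRAPP (*TRAPPC6A*, *TRAPPC2L*, *TRAPPC9*). The groups did not overlap in 4 of the 38 genes, or 10.5%, against 21.0% of all tested genes. Without A904 replicate 1, 1 gene rose and 2 fell, or 7.89%, where 18.8% of all genes passed.

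Of 4 known cargo proteins of the exocyst, 3 were tested. In limma 0 passed the adjusted p, where 0.237% of all tested genes did. An unadjusted p under 0.05 was reached by 2 with A904 higher, where 9.95% of all tested genes did, and the median difference was 0.15. Without A904 replicate 1 all 3 passed, 2 higher and 1 lower, or 100% where 18.8% of all genes passed. *TFRC*, the transferrin receptor, whose recycling in red cell precursors depends on EXOC6, had 132.93, 136.56 and 132.21 TPM in Control and 143.44, 151.87 and 151.15 TPM in A904. Its log2 difference was 0.15 (adjusted p = 0.245 by limma, and 0.18 with 0.0126 without A904 replicate 1). All A904 libraries lay above Control in *TFRC* and *PODXL*, or 66.7% of the 3 tested, where 13.4% of all tested genes did so. *PODXL*, a protein of the apical surface, had a difference of 0.17 (adjusted p = 0.306, and 0.23 with 0.0188 without that library), and *CDH1*, which encodes E-cadherin, one of −0.18 (adjusted p = 0.438, and −0.30 with 0.0111 without it). *CDH1* had 95.07 TPM in A904 replicate 1 and 72.30 and 75.58 TPM in replicates 2 and 3, against 87.07 to 95.24 TPM in Control. *SLC2A4*, the insulin-responsive glucose transporter gene, stayed at or below 0.18 TPM and was not tested.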

How the data were processed

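RNA of HT-29 cells was sequenced by the authors as paired reads of 150 bases, 3 libraries per group. The series text names SeqPrep and Sickle for read trimming, and the processing notes of the submitters name HISAT2, StringTie, RSEM and edgeR, with versions not given in the sources used here. The deposited values are TPM per gene, with no counts, so depth and counting error are unknown. Identifiers of genes are human although the build in those notes is a mouse one, so the human build is not known. A further 25 lines of spilled annotation text were left out.

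The 14333 genes that reached 1 TPM in 3 or more libraries were tested by limma 3.58.1 (R 4.3.3) on log2(TPM + 1) (mean-variance trend, robust empirical Bayes, condition as the only term), with Benjamini-Hochberg adjustment over all of them and a threshold of 0.05. The pipeline was tested on simulated data. The members and gene lists were chosen with earlier results of these data known. Named genes are the members, the EXOC3-related genes, the 3 tested genes with the smallest p per list (1 of which is not reported here), the 5 nearest profiles to *EXOC6* and its 3 neighbours on each side, and beyond these *PTPRC*, *LYZ*, *CD68*, *ACTA2*, *CD3E*, *COL1A2*, *CDX1*, *CDX2*, *RAB11A*, *RALA*, *RALB*, *RHOQ*, *SLC2A4*, *PP7080*, *AP5M1*, *ZACN*, *SPRTN* and *EXOC5P1*, which were chosen after values were seen. Motifs were likewise chosen after the windows were seen. Gene positions are from GENCODE and start windows from RefSeq. Alternatives changed the pseudocount, filter, scaling, model, replicate block and the libraries used.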

Additional observations from a re-analysis of the deposited data

How the results depend on the processing

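The log2 difference of *EXOC6* stayed between 0.78 and 0.83 over the 15 alternatives, and its difference relative to the mean of the other subunits between 0.78 and 0.83 over 10. The count of the other 8 subunits past the adjusted p was 0 in all 15 alternatives. Signs turned for *EXOC6B* without A904 replicate 1 (−0.015) and without A904 replicate 2 (−0.030), and for *EXOC8* without A904 replicate 2 (0.053), and with each library left out these genes ranged from −0.030 to 0.17 and from −0.079 to 0.053; the cause was not tested. Over all genes 34 passed the adjusted p. This became 18 with no filter on low values, 2371 with array weights and 21 with the replicate block, and 9 to 2640 with each library left out, the highest without A904 replicate 1. Among the 88 tested rows of the related lists 0 passed. With array weights 11 did, where 2371 of all 14333 tested genes did. Without Control replicate 2, 1 row did, where 9 of all 14096 genes tested did. With each library left out 0 to 14 did. The highest, again without A904 replicate 1, was 15.9% of the rows, where 18.8% of all genes passed. Deviations from the group means correlated at −0.039 to 0.046 between same-numbered libraries and at −0.042 to 0.054 between the others. With 3 libraries per group, this cannot tell whether same-numbered libraries were prepared together. The replicate block left the count of the other subunits at 0. The depth of the libraries is unknown, which limits what can be said of genes near or below 1 TPM, and a TPM per gene does not separate the transcripts of *EXOC6*.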
